A study of Mus musculus with 24 samples.

Results

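The expression of 9 potassium channel genes was followed in the mouse heart after an ischemic stroke of the brain. The genes were taken by symbol from the annotation of the array platform (Kcnd2, Kcnd3, Kcnip2, Kcna5, Kcnq1, Kcne1, Kcnh2, Kcnj2 and Kcnj11), and all 9 were found, each with 1 identifier, among the 24011 named genes of the table. Hearts came from C57BL/6J mice, a wild-type inbred strain, 8 weeks old, that had either the middle cerebral artery blocked (MCAO, a stroke model that stops blood flow to part of the brain) or a sham operation. RNA of the heart was hybridised to Affymetrix arrays 24 h or 72 h after surgery, with 6 arrays in each of the 4 groups (sham 24 h, MCAO 24 h, sham 72 h and MCAO 72 h). All animals carried the same genotype, and every control had been operated on. The chambers sampled are not stated in the labels. Whether every array holds a different animal is not stated either, and the p-values therefore refer to the spread among these arrays, which may be technical.

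Potassium channels carry the outward currents that end the cardiac action potential and hold the resting potential. In mouse ventricle the early phase of repolarisation is dominated by the fast transient outward current, whose pore is formed by Kv4.2 (Kcnd2) and Kv4.3 (Kcnd3) with the calcium-binding auxiliary protein KChIP2 (Kcnip2), and by delayed rectifier currents such as that of Kv1.5 (Kcna5). The slow delayed rectifier is built from KCNQ1 (Kcnq1) and its small partner MinK (Kcne1), and the rapid one from ERG (Kcnh2). Kir2.1 (Kcnj2) carries the inward rectifier current that sets the resting potential, and Kir6.2 (Kcnj11) is the pore of the channel that opens when ATP falls.

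At 72 h after MCAO 2 of the 3 genes of the transient outward current were lower and the Kv1.5 gene was higher. Kcnd2 fell 1.84-fold and Kcnip2 1.58-fold, whereas Kcna5 rose 1.47-fold. At 24 h the slow delayed rectifier pair was lower, Kcne1 by 1.90-fold and Kcnq1 by 1.39-fold, and Kcna5 was 1.40-fold higher. Kcnd3, Kcnh2, Kcnj2 and Kcnj11 did not pass the test at either time. A gene was called where its Benjamini-Hochberg adjusted p over all named genes was below 0.05 in limma, a linear model with a moderated estimate of the spread. Levels are the deposited log2 intensities, which can be compared between arrays for a gene but not between genes, and changes are differences of log2 levels.

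The number of called members has to be read against the whole array. At 24 h 3 of 9 were called (1 higher, 2 lower), beside 21.8% of all genes (11.1% higher and 10.8% lower). At 72 h 3 of 9 were again called (1 higher, 2 lower), beside 2.35% of all genes (1.17% higher and 1.19% lower). The members were chosen with earlier results of these data known, so these shares are a description and not a test of the set. The median log2 change of the 9 genes was -0.22 at 24 h and -0.08 at 72 h, against 0.01 and 0.00 for all genes.

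The arrays of MCAO 24 h agreed less with each other than those of the other groups. Each array was correlated across genes with the other arrays of its group, and the mean lay between 0.963 and 0.980 in MCAO 24 h, with replicates 5 and 6 lowest, and between 0.983 and 0.994 in the other 3 groups. The labelled tissue was borne out by its markers: all 10 cardiomyocyte markers, among them Myh6, Tnnt2 and Actc1, lay above the 99th percentile of genes by level. Markers of atrial muscle varied between single arrays. The mean of 8 such markers was 8.94 in MCAO 24 h replicate 1, 8.77 in MCAO 72 h replicate 5 and 8.27 in sham 72 h replicate 6, against group medians between 6.30 and 6.87. In RNA of a whole tissue, fewer cells of a type and less RNA per cell cannot be told apart.

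**Figure D1:**
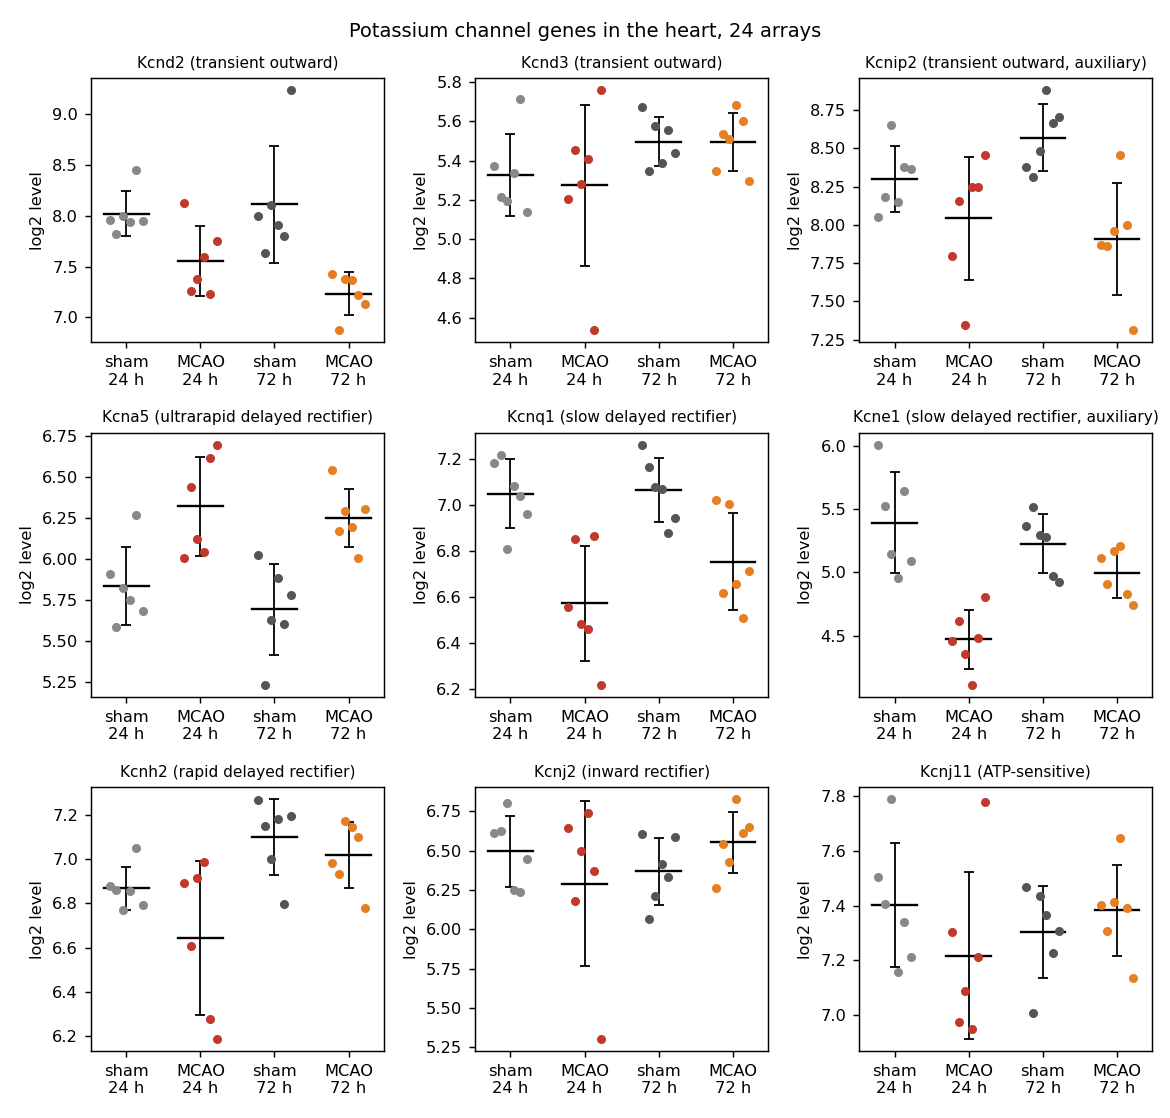
Deposited log2 level of each of the 9 potassium channel genes (y axes, each with its own range) in the 24 arrays, by group (x axes, 6 points each); the bar and whiskers give the mean ± SD. The groups of Kcne1 at 24 h and of Kcnd2 at 72 h do not overlap, and sham 72 h replicate 6 stands alone in Kcnd2 at 9.24.

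The 250 bases before the transcription start of Kcnd2, Kcnd3 and Kcna5 are shown because these genes parted at 72 h: Kcnd2 fell, its close relative Kcnd3 did not pass the test, and Kcna5 rose. They are from RefSeq on GRCm38.p6. The Kcnd2 window is chr6:21215096-21215345 (plus strand), that of Kcnd3 chr3:105451640-105451889 (plus strand) and that of Kcna5 chr6:126535556-126535805 (minus strand), each written 5′ to 3′ along its gene. Capitals mark a GC box (GGGCGG) or a CACC box (CCACCC, a motif of Krüppel-like factors) on either strand.
Kcnd2: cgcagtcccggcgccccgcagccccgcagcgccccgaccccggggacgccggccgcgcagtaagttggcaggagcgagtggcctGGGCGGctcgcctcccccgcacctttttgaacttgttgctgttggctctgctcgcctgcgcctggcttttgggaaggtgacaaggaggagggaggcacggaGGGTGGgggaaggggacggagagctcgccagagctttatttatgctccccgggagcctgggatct
Kcnd3: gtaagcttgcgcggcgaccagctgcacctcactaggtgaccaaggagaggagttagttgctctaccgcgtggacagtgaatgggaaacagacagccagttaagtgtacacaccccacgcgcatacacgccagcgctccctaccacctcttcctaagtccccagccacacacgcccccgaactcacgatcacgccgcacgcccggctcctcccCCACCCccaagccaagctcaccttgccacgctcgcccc
Kcna5: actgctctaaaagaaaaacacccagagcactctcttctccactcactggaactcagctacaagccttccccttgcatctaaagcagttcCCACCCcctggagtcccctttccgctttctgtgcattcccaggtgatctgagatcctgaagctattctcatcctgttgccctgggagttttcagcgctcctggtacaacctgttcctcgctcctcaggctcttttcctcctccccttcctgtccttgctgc

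The CACC box stood once in each of these 3 windows. It stood in 28.1% of the 32851 promoter windows of the same length in the RefSeq table, and in 5 of the 6 windows of members; no test of this was made. A GC box (32.7% of all windows) stood once in Kcnd2 and in neither of the others. The Kcnd2 window held 68.8% G and C, that of Kcnd3 62.8% and that of Kcna5 53.2%, against a median of 52.4%. Of the 9 genes, 6 had such a window. Those not printed are Kcnip2, with 2 CACC boxes and 2 GC boxes, Kcnh2, with 2 and 3, and Kcnj2, with 0 and 2. The E-box of the circadian clock (CACGTG, 6.02% of all windows) stood only in the window of Kcnj2 among the 6, and the letters AGAACA, one arm of the glucocorticoid response element (16.1% of all windows), in none of the 6.

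Kcnd2, which encodes the main pore of the fast transient outward current in mouse ventricle, was the member with the largest change at 72 h. The log2 level ran from 7.63 to 9.24 in sham 72 h (median 7.96) and from 6.87 to 7.43 in MCAO 72 h (median 7.30). All 6 MCAO arrays lay below the lowest sham array. The difference of means was -0.88 (SE 0.20, 95% interval -1.29 to -0.47, adjusted p = 0.0140), a size larger than that of 99.6% of all genes in the same comparison. One sham array, replicate 6, lay at 9.24, well above the next at 8.10, and it also had the highest atrial marker mean of its group. Without it the change was -0.65 (SE 0.14, adjusted p = 0.0144), and with the atrial marker mean of each array as a covariate it was -0.89 (SE 0.19, adjusted p = 0.0104). MCAO 24 h replicate 1, with an atrial marker mean of 8.94, likewise had the highest Kcnd2 of its group (8.13). Other arrays differed. MCAO 72 h replicate 5, with an atrial marker mean of 8.77, had Kcnd2 at 7.22, below the median of its group. Sham 72 h replicate 2, with an atrial marker mean of 7.58, had the lowest Kcnd2 of its group (7.63). The part of atrial muscle in the Kcnd2 levels was not tested.

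At 24 h Kcnd2 lay between 7.83 and 8.45 in sham hearts (median 7.96) and between 7.24 and 8.13 after MCAO (median 7.49), and the groups overlapped. The change was -0.46 (SE 0.20, adjusted p = 0.0983) and was not called. It was called when sham 72 h replicate 6, which enters only through the shared estimate of the spread, was left out (adjusted p = 0.0198), and when MCAO 24 h replicate 1 was left out (change -0.58, adjusted p = 0.0365). That MCAO array had the highest Kcnd2 level and the highest atrial marker mean of its group. With the atrial marker mean as a covariate the change was -0.60 (SE 0.21, adjusted p = 0.0468). In the other 22 of 24 omissions of an array it stayed uncalled. Without sham 24 h replicate 5, the highest sham array, the change shrank to -0.38 (SE 0.20, adjusted p = 0.207). By group mean the order was sham 72 h (8.11 ± 0.57, SD, n = 6), sham 24 h (8.02 ± 0.22), MCAO 24 h (7.56 ± 0.34) and MCAO 72 h (7.24 ± 0.21). The sham means lay within 1 SD of each other, and the MCAO 72 h mean lay within 1 SD of MCAO 24 h but not the reverse; the MCAO groups were not tested against each other.

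Kcnd3, the second pore gene of the transient outward current, did not follow Kcnd2. Its level was 5.14 to 5.72 in sham 24 h (median 5.27), 4.53 to 5.76 in MCAO 24 h (median 5.34), 5.35 to 5.67 in sham 72 h (median 5.50) and 5.30 to 5.68 in MCAO 72 h (median 5.52). The 4 groups overlapped throughout. The change was -0.05 at 24 h (95% interval -0.34 to 0.23, adjusted p = 0.815) and -0.00 at 72 h (95% interval -0.28 to 0.28, adjusted p = 1).

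Whether the paralogs changed unequally was tested within each array, as the Kcnd2 level minus the Kcnd3 level. At 72 h this difference was 2.62 ± 0.59 in sham and 1.74 ± 0.25 in MCAO hearts (SD, n = 6 each), with 6 of 6 MCAO arrays (highest 2.08) below the lowest sham array (2.24). The shift of -0.88 had an exact two-sided permutation p of 0.00216, the smallest that 924 regroupings of the arrays can give (adjusted p = 0.0130 over 6 such tests). All 6 used pairs of genes chosen with earlier results of these data known. Kcnd3 itself changed by -0.00081 at 72 h, so the shift largely repeats that of Kcnd2 and adds no separate support. At 24 h the shift was -0.41 (exact permutation p = 0.0563, adjusted p = 0.121).

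Kcnip2 encodes KChIP2, which brings Kv4 channels to the membrane and slows their inactivation. In sham 72 h the level ran from 8.31 to 8.88 (median 8.58), and in MCAO 72 h from 7.31 to 8.46 (median 7.91). The groups overlapped through 1 MCAO array, replicate 4 at 8.46; the other 5 lay below every sham array. The change was -0.66 (SE 0.17, 95% interval -1.01 to -0.31, adjusted p = 0.0356). This call was near the threshold: it was lost on leaving out any of 9 arrays of 72 h (5 of the 6 of MCAO and 4 of the 6 of sham). The 24 h arrays enter only through the shared estimate of the spread. Over all 24 omissions the change lay between -0.77 and -0.54, with an adjusted p of at most 0.108.

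At 24 h Kcnip2 was between 8.05 and 8.65 in sham (median 8.27) and between 7.35 and 8.46 in MCAO hearts (median 8.20). The change of -0.25 (95% interval -0.61 to 0.10, adjusted p = 0.300) did not pass. Sham 72 h had the highest mean (8.57 ± 0.22) and MCAO 72 h the lowest (7.91 ± 0.37), with sham 24 h (8.30 ± 0.22) and MCAO 24 h (8.04 ± 0.40) between them (SD, n = 6 each). Sham 72 h against sham 24 h gave 0.27 (95% interval -0.08 to 0.62, adjusted p = 1.00), so the upper neighbours were not separated. The shift of Kcnd2 relative to Kcnip2 within arrays was -0.22 at 72 h (exact permutation p = 0.463), and unequal change of the pore gene and its partner was not detectable with 6 arrays a group.

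Kcna5, which encodes the Kv1.5 pore of a rapidly activating delayed rectifier, was higher after MCAO at both times. At 24 h the level ran from 5.59 to 6.27 in sham (median 5.79) and from 6.00 to 6.69 in MCAO hearts (median 6.28), with all 6 MCAO arrays above the sham mean. The change was 0.48 (SE 0.14, 95% interval 0.20 to 0.77, adjusted p = 0.0156). At 72 h the ranges were 5.23 to 6.03 (median 5.70) and 6.01 to 6.54 (median 6.24). These ranges touched only between sham replicate 1 at 6.03 and MCAO replicate 5 at 6.01. The change was 0.56 (SE 0.14, 95% interval 0.27 to 0.84, adjusted p = 0.0279).

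Kv1.5 is abundant in atrial muscle, so the atrial markers are given beside it. The arrays with the highest atrial marker mean, MCAO 24 h replicate 1 and MCAO 72 h replicate 5, had the lowest Kcna5 of their groups (6.00 and 6.01), whereas sham 72 h replicate 6, also high in atrial markers, had the third highest of its group (5.78). With the atrial marker mean as a covariate the change was 0.62 (SE 0.14, adjusted p = 0.00359) at 24 h and 0.57 (SE 0.13, adjusted p = 0.0115) at 72 h. The part of atrial muscle in the Kcna5 levels was not tested. The 24 h call rested on MCAO replicates 5 and 6, whose levels (6.61 and 6.69) were the highest of the group. Without them the change was 0.32 (SE 0.14, adjusted p = 0.0998), and in a fit of only the 12 arrays of 24 h the adjusted p was 0.0534. The 72 h call was lost on leaving out any of 6 of the 12 arrays of 72 h (MCAO replicates 1, 3 and 6, and sham replicates 2, 3 and 5). Changes lay between 0.47 and 0.62 over the 24 omissions, with an adjusted p of at most 0.0820. The order of group means was MCAO 24 h (6.32 ± 0.30), MCAO 72 h (6.25 ± 0.18), sham 24 h (5.84 ± 0.24) and sham 72 h (5.69 ± 0.27) (SD, n = 6 each), and within each treatment the times lay within 1 SD of each other.

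**Figure D2:**
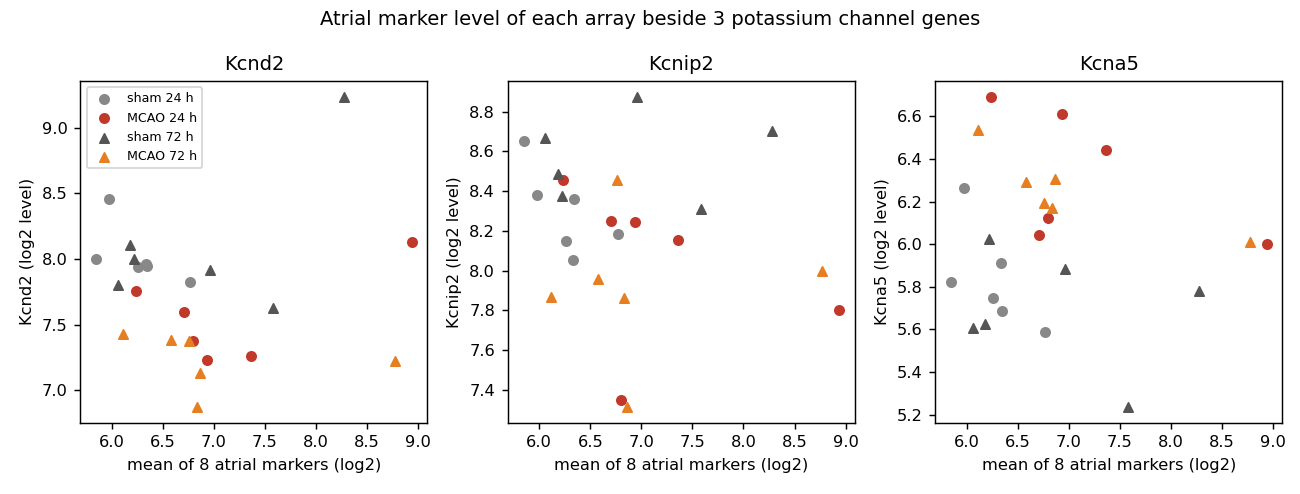
Log2 level of Kcnd2, Kcnip2 and Kcna5 (y axes) against the mean log2 level of 8 atrial markers (x axes) in each of the 24 arrays; colour marks the group, circles 24 h and triangles 72 h. Sham 72 h replicate 6 is the array at 8.27 on the x axis and 9.24 for Kcnd2, and the MCAO arrays with the highest atrial markers have the lowest Kcna5 of their groups.

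Kcne1 encodes MinK, a single-span protein that slows the opening of KCNQ1 channels. It showed the largest change of the 9 genes at 24 h. Sham arrays lay between 4.96 and 6.01 (median 5.33) and MCAO arrays between 4.11 and 4.81 (median 4.47), and all 6 MCAO arrays lay below the lowest sham array. The change was -0.92 (SE 0.15, 95% interval -1.24 to -0.61, adjusted p = 0.000197), and its size was above that of 98.8% of all genes. At 72 h the ranges were 4.92 to 5.52 in sham (median 5.29) and 4.74 to 5.21 in MCAO hearts (median 5.01), which overlapped. The change there was -0.23 (95% interval -0.54 to 0.08, adjusted p = 0.736).

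The smaller size at 72 h was tested as a difference between the times. The effect was more positive at 72 h by 0.69 (SE 0.21, 95% interval 0.25 to 1.13), with an adjusted p of 0.0901, which missed the threshold. It passed only without MCAO 24 h replicate 6 (0.76, adjusted p = 0.0494). A difference between the times was therefore not called for Kcne1.

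Kcnq1, the pore gene of the same channel, moved in the same direction by less. At 24 h it lay between 6.81 and 7.22 in sham (median 7.06) and between 6.22 and 6.87 in MCAO hearts (median 6.52). Only MCAO replicates 2 and 5, at 6.85 and 6.87, reached into the sham range. The change was -0.48 (SE 0.11, 95% interval -0.70 to -0.25, adjusted p = 0.00328). At 72 h the ranges were 6.88 to 7.26 (median 7.08) and 6.51 to 7.02 (median 6.69), and the change of -0.31 (SE 0.11, 95% interval -0.53 to -0.09, adjusted p = 0.162) was not called. Over the 24 arrays Kcne1 and Kcnq1 had a Pearson r of 0.73, the highest of the 36 pairs of members. Once each group mean was subtracted their r was 0.38, and the highest was then that of Kcnh2 and Kcnj2 (0.55). The pairs share the same arrays, and the values are descriptive. Kcne1 minus Kcnq1 within arrays shifted by -0.45 at 24 h (exact permutation p = 0.0606, adjusted p = 0.121) and by 0.08 at 72 h (exact permutation p = 0.422, adjusted p = 0.463).

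The 24 h calls of Kcne1 and Kcnq1 were lost under 1 setting, which also ended that of Kcna5. Odorant and pheromone receptor genes act in the nose and are dim on these arrays, and the first principal component of 1365 of them (23.1% of their variance) was used as a covariate. With it 0 of the 9 members were called at 24 h, in a fit that called 321 genes in all. The change was then -0.87 (SE 0.28, adjusted p = 0.113) for Kcne1, -0.59 (SE 0.20, adjusted p = 0.126) for Kcnq1 and 0.24 (SE 0.25, adjusted p = 0.668) for Kcna5. Uncalled 24 h estimates turned positive, from -0.46 to 0.03 for Kcnd2, from -0.05 to 0.47 for Kcnd3 and from -0.22 to 0.23 for Kcnh2. The part of this component in the 24 h results was not tested. At 72 h the same 3 genes, Kcnd2, Kcnip2 and Kcna5, were called with this covariate as without it.

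Kcnh2 encodes the pore of the rapid delayed rectifier, the channel blocked by many drugs that cause long QT syndrome. Its level was 6.77 to 7.05 in sham 24 h (median 6.86), 6.19 to 6.99 in MCAO 24 h (median 6.75), 6.80 to 7.27 in sham 72 h (median 7.17) and 6.78 to 7.17 in MCAO 72 h (median 7.04). The low values at 24 h were those of MCAO replicates 5 and 6, 6.28 and 6.19. The change was -0.22 (95% interval -0.47 to 0.02, adjusted p = 0.182) at 24 h and -0.08 (95% interval -0.32 to 0.16, adjusted p = 0.997) at 72 h.

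Kcnj2, the Kir2.1 gene of the resting potential, ranged from 6.24 to 6.80 in sham 24 h (median 6.53), 5.30 to 6.74 in MCAO 24 h (median 6.44), 6.06 to 6.60 in sham 72 h (median 6.38) and 6.26 to 6.83 in MCAO 72 h (median 6.58). The value of 5.30 was again MCAO 24 h replicate 6. The change was -0.21 at 24 h (95% interval -0.56 to 0.15, adjusted p = 0.424) and 0.18 at 72 h (95% interval -0.17 to 0.54, adjusted p = 0.911). Neither direction was called.

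Kcnj11, the Kir6.2 pore of the ATP-sensitive channel, ranged from 7.16 to 7.79 in sham 24 h (median 7.37), 6.95 to 7.78 in MCAO 24 h (median 7.15), 7.01 to 7.47 in sham 72 h (median 7.34) and 7.13 to 7.65 in MCAO 72 h (median 7.40). The change was -0.19 at 24 h (95% interval -0.44 to 0.07, adjusted p = 0.304) and 0.08 at 72 h (95% interval -0.18 to 0.34, adjusted p = 0.997). MCAO 24 h replicate 6, at 7.78, was the highest of its group, and without it the change was -0.30 (adjusted p = 0.0450), just past the threshold. For these 4 genes without a call, Kcnd3 included, the intervals reach from -0.56 to 0.54 at their widest (Kcnj2), and changes of those sizes were not excluded.

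**Figure D3:**
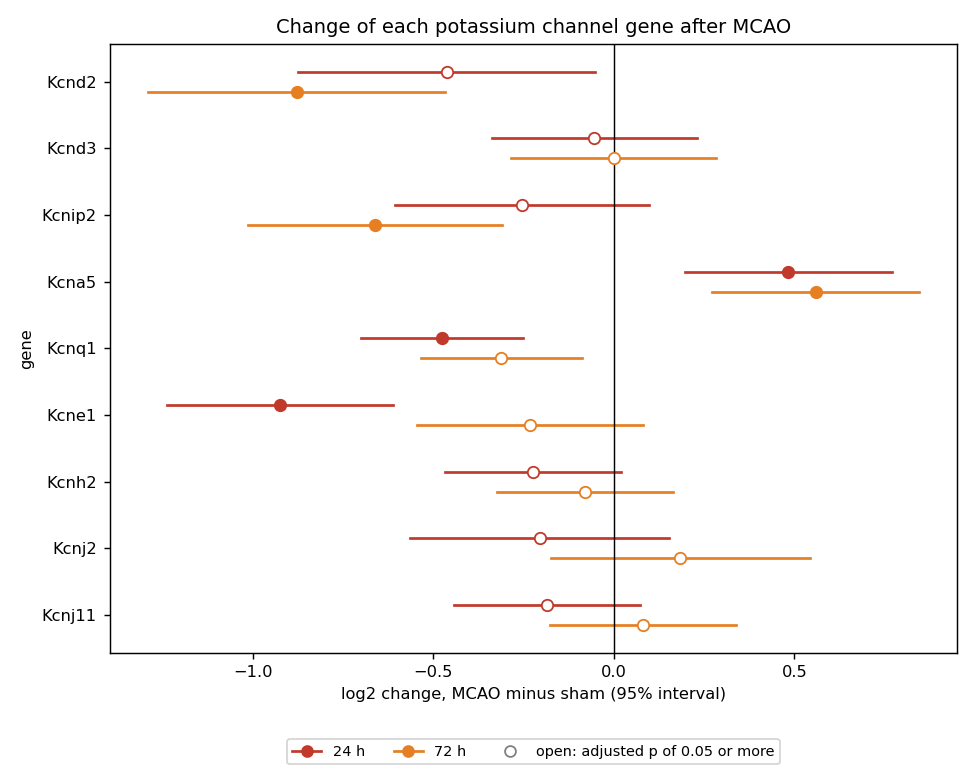
Log2 change after MCAO relative to sham (x axis) for the 9 potassium channel genes (y axis) at 24 h and at 72 h, with 95% intervals from limma; filled points had an adjusted p below 0.05. Kcna5 lies above 0 at both times, Kcne1 and Kcnq1 are filled below 0 at 24 h, and Kcnd2 and Kcnip2 are filled below 0 at 72 h.

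Between the times, the MCAO effect differed for 0 of the 9 genes (limma; 1 of 9, Kcne1, at an unadjusted p below 0.05), beside 1.79% of all genes. The estimate was more negative at 72 h for Kcnd2 (-0.41, SE 0.28) and Kcnip2 (-0.41, SE 0.24) and more positive for the other 7. So a change called at one time and not at the other was not shown to differ between them. Sham hearts at 72 h against 24 h also gave 0 of 9 calls (limma; 0 of 9 at an unadjusted p below 0.05), beside 0.0208% of all genes. The largest estimate between sham groups was that of Kcnip2, at 0.27.

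Groups that did not overlap were found for 1 of 9 members at 24 h (Kcne1) and 1 of 9 at 72 h (Kcnd2). Among all genes, 5.53% had groups without overlap at 24 h and 3.54% at 72 h, and 21.8% and 2.35% were called. Within groups, the 24 h arrays spread more than the 72 h arrays for 8 of the 9 members. The exception was Kcnd2, with a pooled SD of 0.29 at 24 h and 0.43 at 72 h. For all genes the median SD was 0.19 and 0.12.

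Of 63 other potassium channel and channel subunit genes listed, 59 were measured. At 24 h 11 were lower and 5 higher (27.1% called, against 21.8% of all genes), and at 72 h 1 was higher and 0 lower (limma; 1.69% called, against 2.35% of all genes; 6 of 59 at an unadjusted p below 0.05). Their median change was -0.04 and 0.01. For 2 of the 59 (3.39%, against 1.79% of all genes) the response at 72 h was called different from that at 24 h. They were Kcna2 (more positive at 72 h by 0.38, SE 0.08, adjusted p = 0.0210) and Kcnmb1 (more positive by 0.48, SE 0.11, adjusted p = 0.0272). Many of these genes were dim: 31 of the 59 had a mean level above 3.96, the 95th percentile of the receptor genes, whereas all 9 members lay above it. Kcna2, at 3.82, lay below this level.

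Among the other voltage-gated pore genes 6 of 18 were lower and 0 higher at 24 h (10.8% and 11.1% of all genes). The named ones were Kcna2 (-0.31, SE 0.06, adjusted p = 0.000601), Kcng2 (-0.71, SE 0.18, adjusted p = 0.00693), a silent subunit that joins other Kv pores, Kcns3 (-0.32, SE 0.08, adjusted p = 0.00799) and Kcnh1 (-0.28, SE 0.08, adjusted p = 0.0105). Kcng2 went from 6.75 ± 0.24 to 6.04 ± 0.59 (SD, n = 6 each), while Kcna2 and Kcnh1 had mean levels under 3.96. At 72 h 0 of the 18 were called (limma; 2 of 18 at an unadjusted p below 0.05). Kcna4, which encodes the slow transient outward pore Kv1.4, had a change of 0.18 (SE 0.08, adjusted p = 0.417) at 72 h, with a mean level of 3.64, also under 3.96.

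Auxiliary subunit genes included the only one of the 59 called at 72 h, Kcnip3. It encodes KChIP3, also known as calsenilin or DREAM, of the same family as Kcnip2. Its level was 4.51 to 5.12 in sham 72 h (median 4.91) and 5.15 to 5.82 in MCAO 72 h (median 5.29), with no overlap. The change was 0.47 (SE 0.12, adjusted p = 0.0330), opposite in sign to that of Kcnip2. At 24 h it was 0.34 (SE 0.12, adjusted p = 0.0426), and Kcne4 (0.22, SE 0.07) and the channel scaffold gene Akap9 (0.28, SE 0.08) were higher too. Thus 3 of 12 were higher and 0 lower at 24 h, beside 11.1% and 10.8% of all genes.

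Among the other inward rectifier and ATP-sensitive channel genes 2 of 11 were lower at 24 h and 0 higher. Beside this and the other 24 h counts of this paragraph stand 10.8% of all genes lower and 11.1% higher. Abcc9, which encodes the sulfonylurea receptor SUR2 that assembles with Kir6.2 in heart muscle, went from 11.24 ± 0.13 to 10.88 ± 0.17 (SD, n = 6 each; change -0.36, SE 0.08, adjusted p = 0.00454), and Kcnj4 changed by -0.25 (SE 0.09, adjusted p = 0.0397). At 72 h Abcc9 was at -0.29 (SE 0.08, adjusted p = 0.0787), and 0 of 11 were called (limma; 2 of 11 at an unadjusted p below 0.05). Of 10 tandem-pore genes 1, Kcnk2 (TREK-1), was higher at 24 h (0.28, SE 0.08, adjusted p = 0.0104). Of 8 genes of calcium-activated channels 3 were lower and 1 higher at 24 h. Kcnmb1, the beta subunit of the large-conductance channel of smooth muscle, changed most clearly (-0.55, SE 0.08, adjusted p = 3.32e-05), followed by Kcnn4 (-0.43, SE 0.08), the dim Kcnmb4 (-0.23) and, upward, the small-conductance gene Kcnn1 (0.41, SE 0.10). Smooth muscle and pericyte markers were also lower in MCAO 24 h (2 of 6 called; the list mean ran from 7.60 to 7.93, against 7.95 to 8.36 in sham), and their part in the Kcnmb1 change was not tested.

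**Figure D4:**
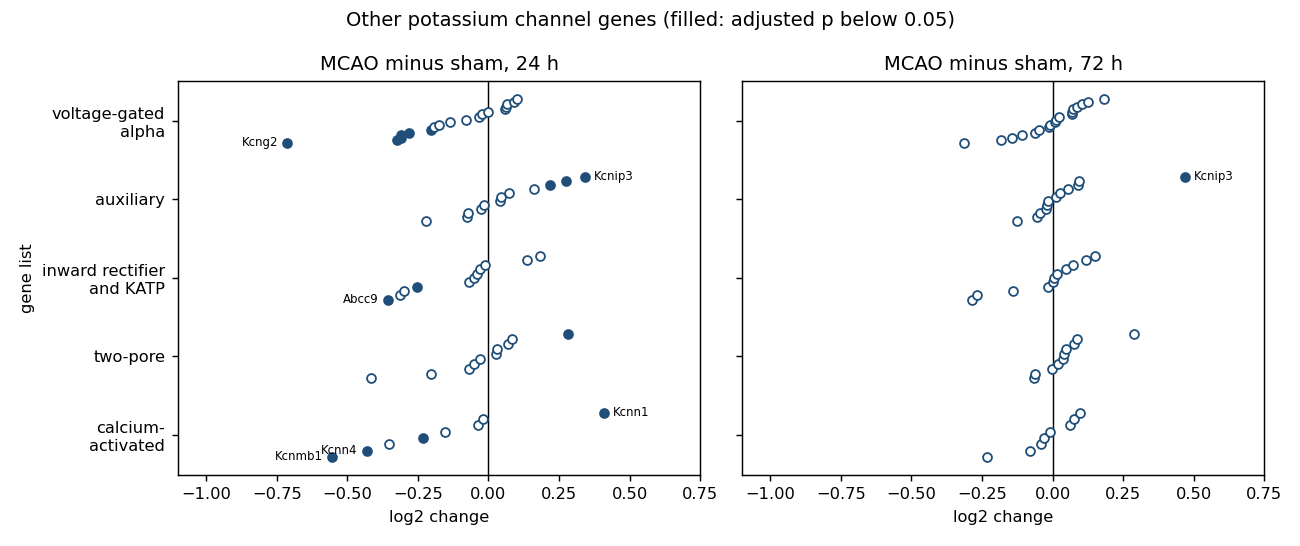
Log2 change after MCAO relative to sham (x axes) of 59 other potassium channel genes in 5 lists (y axis) at 24 h (left) and 72 h (right); each point is a gene, filled where the adjusted p was below 0.05, and filled points beyond 0.3 are named except 3 crowded ones. At 24 h 16 points are filled, at 72 h 1, Kcnip3.

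Transcription factors known to act on cardiac potassium channel genes were examined beside them. Klf15, a Krüppel-like factor known to drive the daily rhythm of Kcnip2, rose at both times. At 72 h its level went from 6.68 ± 0.27 to 7.35 ± 0.15 (SD, n = 6 each; change 0.68, SE 0.16, adjusted p = 0.0190), with no overlap of the groups, while Kcnip2 fell. At 24 h the change was 1.17 (SE 0.16, adjusted p = 3.03e-05). Irx5, a homeobox repressor of Kcnd2 in mouse ventricle, was lower at 24 h (-0.47, SE 0.16, adjusted p = 0.0330), and at 72 h, when Kcnd2 fell, it was at 0.17 (SE 0.16, adjusted p = 0.908). Gata4 (-0.58, SE 0.14), Mef2c (-0.32, SE 0.10) and Tbx20 (-0.28, SE 0.09) were lower and Tbx3 (0.33, SE 0.12), a factor of the conduction system, was higher at 24 h. In all 2 of 14 rose and 4 fell at 24 h, beside 11.1% and 10.8% of all genes. At 72 h 1 of 14, Klf15, rose and 0 fell, beside 1.17% and 1.19% of all genes. A link between these factors and the channel genes was not tested.

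Markers of other cells changed in the same hearts. Over all genes 10.8% were lower and 11.1% higher at 24 h, and 1.19% and 1.17% at 72 h. Of 7 fibroblast markers 4 were lower at 24 h and 1 at 72 h (0 higher at either time), and the list mean ran from 6.65 to 7.49 in MCAO 24 h against 7.64 to 8.13 in sham 24 h, and from 7.15 to 7.71 against 7.43 to 8.59 at 72 h. Of 10 cardiomyocyte markers 3 were lower at 24 h and 0 at 72 h (limma; 3 of 10 at an unadjusted p below 0.05). Their list mean ran from 12.42 to 12.65 in MCAO 24 h and 12.59 to 12.74 in sham 24 h, and from 12.47 to 12.66 against 12.64 to 12.76 at 72 h. Of 8 atrial markers 1, Nr2f2, was called higher at 24 h and 0 at 72 h, but all 8 estimates were positive at 24 h (median 0.46). All 8 were also positive for sham 72 h against sham 24 h (median 0.52), where the Kcna5 estimate was -0.14. In that comparison 0 of the 8 were called (limma, 1 of 8 at an unadjusted p below 0.05). The atrial list mean ran from 6.23 to 8.94 in MCAO 24 h (mean 7.16) against 5.85 to 6.77 in sham 24 h (mean 6.25), in the comparison in which Kcna5 was higher, and from 6.11 to 8.77 against 6.06 to 8.27 at 72 h. The mean of 5 conduction system markers ran from 4.31 to 4.73 in MCAO 24 h against 4.31 to 4.68 in sham 24 h, and from 4.45 to 4.59 against 4.35 to 4.70 at 72 h. The lists of neurons and glia and of adipocytes had means of at most 3.86 in every array. Of 6 endothelial markers 1 was higher and 1 lower at each time, of 6 macrophage markers 0 were called at either time (limma; 2 of 6 at an unadjusted p below 0.05 at each time), and of 6 skeletal muscle markers 1 was lower at each time. The part of other cells in the channel gene changes was not tested.

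For each member the 3 named genes with the most similar log2 levels over the 24 arrays were listed, by Pearson r, as a description. Kcnd2 was followed most closely by Pla2g5 (r = 0.83), Lrtm1 (r = 0.83) and Mhrt (r = 0.79), the last a long noncoding RNA of the myosin heavy chain locus. Kcnip2 was followed by Pfkm (r = 0.82), the muscle phosphofructokinase gene, Adssl1 (r = 0.78), the muscle adenylosuccinate synthase gene, and Lynx1 (r = 0.78). Kcna5 was followed by Thsd7a, Pkp4 and Eif3b (r between 0.81 and 0.84). Kcne1 had Lrrc14b, Glipr2 and Tyw3 (r between 0.81 and 0.82) and Kcnq1 had Hikeshi, Adam17 and Fblim1 (r between 0.83 and 0.87).

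The nearest gene of each member was also compared within the groups. With the group means subtracted, r was 0.88 for Kcnd3 and Hdac5, 0.87 for Kcnj2 and Rbm6, 0.83 for Kcnj11 and the olfactory receptor gene Olfr1262, 0.78 for Kcnh2 and Zfp689, 0.81 for Kcnip2 and Pfkm, 0.72 for Kcnq1 and Hikeshi, 0.68 for Kcna5 and Thsd7a, 0.60 for Kcnd2 and Pla2g5, and 0.52 for Kcne1 and Lrrc14b. The other nearest genes were Pus1 and Camsap1 for Kcnd3, Csmd1 and Adnp for Kcnh2, Eny2 and Ube2w for Kcnj2, and Smn1 and Prss50 for Kcnj11 (r over the 24 arrays between 0.80 and 0.85). All these values share the same arrays, 6 of them the widely spread MCAO 24 h arrays.

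**Figure D5:**
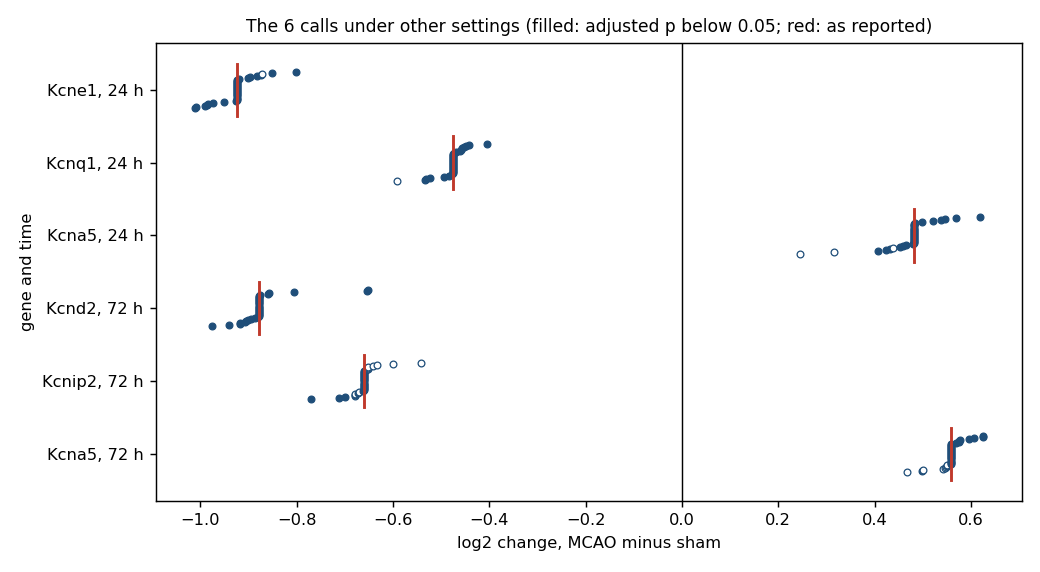
Log2 change of the 6 calls (y axis) under other settings and with each array left out in turn (x axis; each point is 1 setting, filled where the adjusted p was below 0.05; the red line is the value as reported). No point crosses 0, and open points are most frequent for Kcnip2 and Kcna5 at 72 h.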

How the data were processed

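The deposited table holds log2 values of 24 arrays for 24973 gene identifiers, and their sorted values were identical in 23 columns, the mark of quantile normalization by the authors. The log2 base was inferred from their range, 2.78 to 13.5. Per the labels, total RNA extracted with Trizol was labelled as biotinylated cRNA. No summarization method or build is given in the sources used here, and HOMER is listed, with no role, in the submitters' processing notes. Groups came from the titles. The free-text descriptions of the 72 h samples name 24 h and were not followed.

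Of the identifiers 24015 had 1 symbol in the platform annotation and 958 were unnamed. Symbols were updated through Entrez identifiers to RefSeq. For 4 symbols that stood on more than 1 identifier the brightest on average was used, leaving 24011 genes. Genes were tested with limma version 3.58.1 (lmFit, eBayes) in R version 4.3.3, with a mean for each of 4 groups over 24 arrays (20 residual degrees of freedom) and Benjamini-Hochberg adjustment over all genes at 0.05. The fit was tested on simulated data. Errors are moderated standard errors, and intervals are 95% intervals.

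The members and gene lists were chosen with earlier results of these data known, as were the within-array differences. Named genes were all members, up to 4 called genes of each channel list with the smallest p, all called transcription factors, and the 3 genes most like each member, leaving out predicted symbols. Outside this rule Kcna4 and the 72 h values of Irx5 and Abcc9 are given for their role, chosen after their values were seen. Other settings tried were array weights, leaving dim genes out, averaging identifiers, a robust trended prior, centring arrays on their median, repeating the quantile step, fitting only the groups compared, a block for the replicate number, omission of arrays, and covariates for receptor genes and atrial markers. No 2 arrays held identical values, and 0 columns were left unused.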

Additional observations from a re-analysis of the deposited data

Results flagged for a closer look

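Kcnd2 had 1 array apart from the rest in each sham group. In sham 72 h, replicate 6 lay at 9.24 and the next array at 8.10, a gap that was 0.71 of the range of the group, above Dixon's critical value for 6 samples. In sham 24 h, replicate 5 lay at 8.45 and the next at 8.00, a gap that was 0.72 of the range. Over the 9 genes and 4 groups 36 sets of 6 arrays were examined and 2 were marked, where chance marks about 1 in 20. Without sham 72 h replicate 6 the 72 h change of Kcnd2 was -0.65 (SE 0.14), and without sham 24 h replicate 5 the 24 h change was -0.38 (SE 0.20).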

How the results depend on the processing

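Over all members, comparisons and settings, 1257 values kept their side of the threshold, 22 lost a call and 8 gained one, and 0 called values changed sign. Kcnd2 at 72 h was called under all 12 other settings and all 24 omissions of an array. Some of these could hardly move it. Each member had 1 identifier, the values were already quantile normalized, and 24 h arrays enter only through the shared estimate of the spread. Kcne1 and Kcnq1 at 24 h lost their calls only with the receptor covariate. Kcna5 at 24 h lost its call with array weights (adjusted p = 0.0626), in the fit of 12 arrays, without MCAO replicates 5 and 6 and with the receptor covariate. Kcnip2 at 72 h was also lost without sham replicate 6 and MCAO replicate 5 together (adjusted p = 0.122, a setting chosen after seeing the data), and Kcnq1 at 72 h was called with array weights (adjusted p = 0.0254). Members called at 24 h were 0 with the receptor covariate. With single arrays left out, members called at 72 h ranged from 1 to 3 and for the difference between times from 0 to 1; 1 remained at 72 h without MCAO 72 h replicate 1, 3 or 6 or sham 72 h replicate 3 or 5.

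The count over all genes moved more. At 24 h it was 5237, and 3438 without dim genes (fewer genes tested), 3259 with array weights, 2194 with only the groups compared and 321 with the receptor covariate. At 72 h it was 565, and 1905 with array weights, 1410 with only the groups compared, 1103 without MCAO 24 h replicates 5 and 6 and 343 without sham 72 h replicate 6 and MCAO 72 h replicate 5. For the difference it was 430, and 218 without dim genes, 1079 without MCAO 24 h replicates 5 and 6, 5 with the receptor covariate, 109 without the 2 arrays of 72 h, and 197 to 1012 with single arrays left out. For sham against sham it was 5, and 27 with array weights, 1 with only the groups compared, 1 with the replicate block, 1 without the 2 arrays of 72 h, and 1 to 6 with single arrays left out. The causes were not tested. The replicate block gave 4938 genes at 24 h and 519 at 72 h and changed no call among the members. Deviations of same-numbered arrays had an r of -0.05 to 0.01 at 24 h and -0.07 to 0.14 at 72 h. For 2 MCAO arrays at 72 h and 0 at 24 h the same-numbered sham array had the highest r. These values cannot decide whether same-numbered arrays were paired. The number of arrays limits the precision. No measured background signal was analysed here, and the receptor genes stood in for dim signal.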
